A study of Mus musculus with 8 samples.

Results

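The folding machinery of the cytosol and of the endoplasmic reticulum (ER) was followed in OT-I CD8+ T cells through 38 named genes, 24 of them cytosolic and 14 of the ER, among the 47069 genes of the table. A member was the row whose gene name was on this list, and each name had its row. The transgenic receptor of OT-I cells recognises a peptide of ovalbumin, and OVA-T4 (SIITFEKL) is a variant that this receptor binds with low affinity. The 2 groups were cells given OVA-T4 at 10 nM for 24 h (OVA-T4, 4 libraries) and cells given the same peptide with recombinant TGFβ at 5 ng/mL (OVA-T4 + TGFβ, 4 libraries), so that all 8 libraries came from stimulated cells and none from resting ones. The labels give lymph nodes as the source, CD8 T cells as the cell type and WT as the genotype. The methods of the study name both OT-I mice and OT-I Rag1-/- mice, which make no mature B or T cells other than those with the transgenic receptor, without saying which gave these samples, and describe no sort. The labels call the 4 libraries of a group biological replicates. No source says whether they came from separate mice, so the p-values measure the spread between these cultures. The unit is FPKM, reads divided by gene length and by a read total of the library. These totals, solved from the FPKM values, were 35586261 to 41597929 reads.

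Newly made proteins in the cytosol meet the chaperones HSP70 and HSP90, which bind and release clients with the energy of ATP, and the ring-shaped chaperonin TRiC/CCT, which encloses actin, tubulin and other clients while they fold. The ER has its own HSP70 (BiP) and HSP90 (GRP94), together with disulfide isomerases and the lectins calnexin and calreticulin, which serve secreted and membrane proteins. HSF1 drives the cytosolic chaperone genes under heat stress, while ATF6 and XBP1 drive the ER chaperone genes in the unfolded protein response. T cells that leave quiescence raise protein synthesis and grow, and chaperone genes are among those induced with activation.

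Nearly all the listed cytosolic members were lower with TGFβ. The members were chosen with earlier results of these data known, so the counts describe the listed names only. Of the 22 cytosolic members with a mean of at least 0.5 FPKM, which were the ones tested, 21 were lower with TGFβ and 0 were higher (limma on log2(FPKM + 0.5), adjusted p under 0.05 over all 12879 genes tested), where 20.2% of all genes tested were lower and 30.7% were higher. The member that did not pass was Dnajb1. In those 21 genes every library with TGFβ lay below every library without it, as in 18.9% of all genes. The median log2 fold change of the 22 was -0.54, with a range of -0.80 to 0.08, beside a median of 0.08 over all genes tested. Of the 61 tested cytosolic folding genes outside the members, 22 were lower and 12 were higher, with a median of -0.07. Of the 14 ER members, all of them tested, 7 were lower, 0 were higher and 7 did not pass, with a median log2 fold change of -0.16 and a range of -0.48 to 0.34. At an unadjusted p under 0.05, 0 cytosolic members and 1 ER member (Dnajc3) were higher, and limma voom on the reads recovered from the FPKM values gave 0 higher in both sets. Whether the cytosolic and the ER set differ in these shares was not tested. Fewer cells of a type and less RNA per cell cannot be told apart in such bulk libraries.

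**Figure D1:**
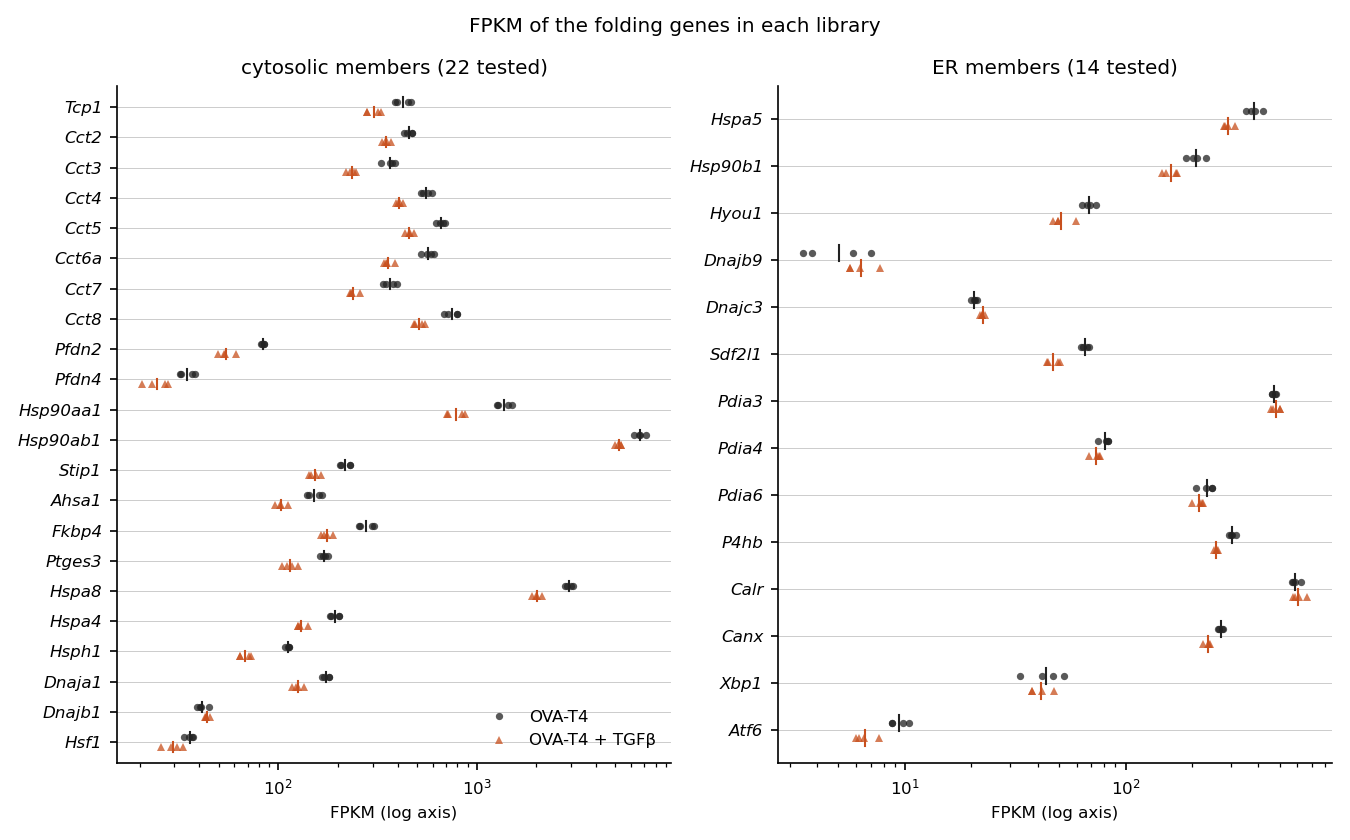
FPKM of each tested member on a log axis, with cytosolic members on the left and ER members on the right. Each point is 1 library (black circles OVA-T4, orange triangles OVA-T4 + TGFβ) and the short vertical line is the mean of 4. The orange points lie left of the black ones in 21 of the 22 cytosolic rows and in 7 of the 14 ER rows, and Hsp90ab1 is the most abundant member.

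All 8 subunits of TRiC/CCT were lower with TGFβ, with log2 fold changes from -0.67 (Cct6a) to -0.37 (Cct2). Their summed level was 3849, 4319, 4391 and 4009.6 FPKM in OVA-T4 and 2728, 3044, 2894 and 2783 FPKM in OVA-T4 + TGFβ, so that the highest library with TGFβ stayed below the lowest one without it. Cct6a, at chromosome 5 from 129786998 to 129846371 of GRCm38, had 521, 587, 608 and 561 FPKM in OVA-T4 and 342, 386, 353 and 349.9 FPKM in OVA-T4 + TGFβ (log2 fold change -0.67 ± 0.06 SE, limma adjusted p = 2.77e-05). The means of Cct6a were 569 ± 37.3 FPKM in OVA-T4 and 358 ± 19.1 FPKM in OVA-T4 + TGFβ (SD, n = 4 each), a drop to 62.8%. Cct3, at chromosome 3 from 88297116 to 88321767, had 331, 376, 387 and 364 FPKM in OVA-T4 and 220.2, 247, 231 and 241 FPKM in OVA-T4 + TGFβ (log2 fold change -0.63 ± 0.06 SE, limma adjusted p = 3.83e-05). Both were lower in each of the 4 pairs of libraries with the same replicate number, and both were among the 7 cytosolic members lower by over 1.5-fold, where 6.07% of all genes tested were lower by that much. Cct7 was also past this fold, at -0.61 (adjusted p = 6.12e-05). The subunit that moved least was Cct2, at chromosome 10 from 117051001 to 117063814, which had 429, 469.8, 471 and 445 FPKM in OVA-T4 and 333, 368, 355 and 345 FPKM in OVA-T4 + TGFβ (log2 fold change -0.37 ± 0.05 SE, limma adjusted p = 0.000282). Between them lay Cct8 at -0.54, Cct5 at -0.53, Tcp1 (the alpha subunit) at -0.49 and Cct4 at -0.45, with adjusted p-values of 0.000184, 3.59e-05, 0.000951 and 0.000126.

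The assembled ring is built from all 8 subunits, and the transcripts of the subunits kept much of their order of FPKM across the 8 libraries. Cct8 was the highest and Cct5 the second in every library. Cct3 and Cct7 held the lowest ranks, at 365 FPKM each with OVA-T4, and traded places between libraries. Cct6a was above Cct4 in OVA-T4 replicates 2, 3 and 4, but below it in OVA-T4 replicate 1 and in every library with TGFβ. In OVA-T4 + TGFβ replicate 3 Cct6a was also below Cct2. The highest subunit was 2.06 to 2.12 times the lowest one with OVA-T4 and 2.09 to 2.29 times with OVA-T4 + TGFβ. Shares within the family shifted by little over 1 percentage point at most. Cct2 held 11.0% ± 0.193 of the summed FPKM with OVA-T4 and 12.2% ± 0.128 with OVA-T4 + TGFβ, and Cct6a went from 13.7% ± 0.213 to 12.5% ± 0.201 (SD, n = 4 each). The share of Cct8 was 18.0% ± 0.324 and 17.9% ± 0.345, a difference within the spread of the replicates. Exons of Tcp1, Cct6a, Cct7 and Cct8 overlap those of expressed genes on the opposite strand (Mrpl18, Psph, Pradc1 and Usp16). No source states whether strand was used in counting, so reads of these pairs cannot be told apart there.

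**Figure D2:**
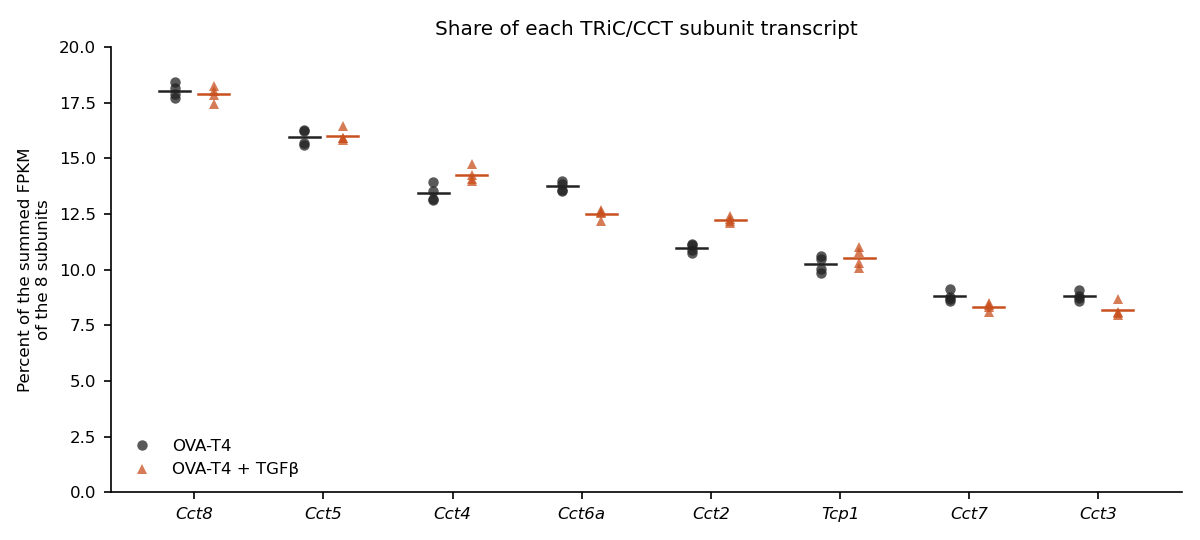
Share of each TRiC/CCT subunit in the summed FPKM of the 8 subunits, in percent. Points are libraries (black circles OVA-T4, orange triangles OVA-T4 + TGFβ) and bars are means of 4. Cct2 sits higher with TGFβ (12.2% against 11.0%) and Cct6a lower (12.5% against 13.7%), while Cct8 and Cct5 overlap.

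Prefoldin is a jellyfish-shaped hexamer that hands unfolded actin and tubulin to TRiC/CCT. Both of its listed subunits were lower. Pfdn2 had 82.3, 84.7, 85.0 and 82.7 FPKM in OVA-T4 and 49.6, 60.9, 53.1 and 54.0 FPKM in OVA-T4 + TGFβ (log2 fold change -0.62 ± 0.06 SE, limma adjusted p = 5.01e-05), and its 4 libraries with OVA-T4 spanned less than 3 FPKM. Pfdn4 had 31.8, 37.0, 38.1 and 32.3 FPKM in OVA-T4 and 23.1, 27.0, 27.7 and 20.6 FPKM in OVA-T4 + TGFβ (log2 fold change -0.50 ± 0.10 SE, limma adjusted p = 0.00351). The groups did not overlap in either gene. Of the 6 other genes of prefoldin and prefoldin-like complexes, all tested, 2 were lower (Pfdn6 at -0.42 and Uxt at -0.24), 1 was higher (Pfdn5 at 0.23) and 3 did not pass, so that subunits of the same hexamer went both ways. Pfdn5 stayed higher after median of ratios scaling (adjusted p = 0.0344).

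The 2 cytosolic HSP90 genes were both lower, with unlike log2 fold changes, though the test of their ratio did not pass after adjustment. Hsp90ab1, the constitutive form, on chromosome 17 from 45567775 to 45573271 of GRCm38, ranked 3 among all genes tested by mean FPKM and made up 40.1% ± 0.894 of the summed cytosolic FPKM with OVA-T4 (SD, n = 4). It had 6211, 7118, 6626 and 6562 FPKM in OVA-T4 and 4997, 5352, 5171 and 5319 FPKM in OVA-T4 + TGFβ (log2 fold change -0.35 ± 0.06 SE, limma adjusted p = 0.00131). With no filter on low values its adjusted p was 0.0595, the one alternative in which it did not pass. Hsp90aa1, the inducible form, on chromosome 12 from 110690605 to 110702728, had 1284, 1433, 1511 and 1261 FPKM in OVA-T4 and 707, 873, 847 and 720.2 FPKM in OVA-T4 + TGFβ (log2 fold change -0.80 ± 0.09 SE, limma adjusted p = 9.57e-05). This was the largest fall of any member, to 57.3% of the OVA-T4 mean. Hsp90aa1 was present at 0.207, 0.201, 0.228 and 0.192 times the FPKM of Hsp90ab1 with OVA-T4 and at 0.141, 0.163, 0.164 and 0.135 times with OVA-T4 + TGFβ. The groups did not overlap in this ratio, which does not depend on the scaling between libraries (difference of -0.46 in log2, two-sided exact permutation test, p = 0.0286, the smallest that 4 against 4 libraries allow, and 0.0857 after adjustment over the 3 ratios tested). With the libraries paired by replicate number, all 4 pairs moved down and the exact p was 0.125, the smallest that 4 pairs allow.

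The listed cofactors of HSP90 fell with it. Fkbp4 (FKBP52), an immunophilin of HSP90 complexes, had 254, 303, 297 and 259 FPKM in OVA-T4 and 165, 189, 177 and 170.1 FPKM in OVA-T4 + TGFβ (log2 fold change -0.66 ± 0.07 SE, limma adjusted p = 7.97e-05). Ptges3 (p23), which binds the ATP-bound form of HSP90, had 178, 173, 169 and 163 FPKM in OVA-T4 and 110.1, 126, 117 and 104 FPKM in OVA-T4 + TGFβ (log2 fold change -0.58 ± 0.06 SE, limma adjusted p = 7.49e-05). Ahsa1, the activator of its ATPase, was at -0.55 (adjusted p = 0.00022). Stip1 (HOP), which bridges HSP70 and HSP90, was at -0.51 (adjusted p = 0.000159). The groups did not overlap in any of these 4 genes. Of 13 other HSP90 cofactors, all tested, 7 were lower, 2 were higher and 4 did not pass. Ppid (cyclophilin 40) was among the lower ones with 214, 231, 235 and 213 FPKM in OVA-T4 and 119.6, 139.5, 128 and 125 FPKM in OVA-T4 + TGFβ (log2 fold change -0.80 ± 0.06 SE, limma adjusted p = 9.64e-06), close in size to Hsp90aa1. Nudc, a cofactor that also acts in nuclear migration, went from 417, 495, 461 and 398 to 254, 293, 279 and 251 FPKM (log2 fold change -0.72 ± 0.08 SE, limma adjusted p = 9.74e-05).

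HSP70 was measured almost wholly as its constitutive form. Hspa8 (HSC70), on chromosome 9 from 40800984 to 40810087 of GRCm38, had 2779, 3039, 2987 and 2858 FPKM in OVA-T4 and 1902, 2123, 2022 and 2001 FPKM in OVA-T4 + TGFβ (log2 fold change -0.54 ± 0.05 SE, limma adjusted p = 5.55e-05), the second most abundant member. The heat-inducible copies Hspa1a and Hspa1b, which lie near each other on chromosome 17, were under the filter. Hspa1a had 6, 1, 5 and 7 reads with OVA-T4 and 7, 9, 0 and 22 with OVA-T4 + TGFβ, and Hspa1b had 35, 18, 28 and 47 and 40, 15, 12 and 40. The copies are nearly identical, so reads can be split or lost between them, and their groups overlapped. A fit with no filter gave adjusted p-values of 0.488 for Hspa1a and 0.760 for Hspa1b from limma. At this depth no difference was detectable in these 2 genes.

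The HSP110 proteins, which release nucleotide from HSP70, were both lower. Hsph1 (HSP105) had 108, 114, 113 and 112 FPKM in OVA-T4 and 64.5, 72.8, 64.3 and 71.5 FPKM in OVA-T4 + TGFβ (log2 fold change -0.71 ± 0.05 SE, limma adjusted p = 1.16e-05), the smallest adjusted p of any member. Hspa4 had 184, 203, 203 and 183 FPKM in OVA-T4 and 125, 141, 128 and 126 FPKM in OVA-T4 + TGFβ (log2 fold change -0.57 ± 0.06 SE, limma adjusted p = 5.78e-05). Hsph1 stood at 0.577 ± 0.0262 times Hspa4 with OVA-T4 and 0.524 ± 0.0283 times with OVA-T4 + TGFβ (SD, n = 4 each), and these ratios overlapped between the groups (exact permutation test, two-sided, p = 0.0857, and 0.114 after adjustment over 3 ratios). A difference between the falls of the 2 genes was therefore not shown. Among the other HSP70 and HSP110 genes, Hspa4l was higher (0.43), Hspa14 was lower (-0.36) and 2 of 4 did not pass, while 2 of 4 were higher with the replicate block. Of 9 other HSP70 cofactors, 4 were lower, 0 were higher and 5 did not pass. Bag2, a nucleotide exchange factor of HSP70, went from 19.5, 16.7, 15.6 and 25.5 to 11.0, 11.1, 9.28 and 13.3 FPKM (log2 fold change -0.75 ± 0.16 SE, limma adjusted p = 0.00356).

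The 2 cytosolic J proteins, which deliver clients to HSP70 and stimulate its ATPase, did not move alike. Dnaja1 had 166, 179, 179.7 and 170.2 FPKM in OVA-T4 and 118, 135, 126 and 123 FPKM in OVA-T4 + TGFβ (log2 fold change -0.47 ± 0.05 SE, limma adjusted p = 0.000103), with no overlap of the groups, and shares exons with Smu1 on the opposite strand. Dnajb1 (HSP40), on chromosome 8 from 83608193 to 83612653 of GRCm38, had 44.9, 40.9, 39.1 and 40.3 FPKM in OVA-T4 and 45.3, 43.2, 42.7 and 43.3 FPKM in OVA-T4 + TGFβ (log2 fold change 0.08 ± 0.05 SE, limma adjusted p = 0.242). Its 95% interval of -0.04 to 0.20 in log2 lies outside the values of the other 21 cytosolic members, and its value was -0.023 after median of ratios scaling. Dnajb1 was above its partner library of the same number in 4 of 4 pairs, by 0.01 to 0.12 in log2, but the groups overlapped. Of 11 other cytosolic J protein genes, 2 were lower, 4 were higher and 5 did not pass. Hsf1, the heat shock factor, on chromosome 15 from 76477422 to 76501913, had 35.5, 37.1, 33.6 and 36.9 FPKM in OVA-T4 and 30.8, 28.7, 25.7 and 33.0 FPKM in OVA-T4 + TGFβ (log2 fold change -0.28 ± 0.08 SE, limma adjusted p = 0.0155). This was the smallest fall among the 21. The 2 other heat shock factor genes listed, both tested, did not pass.

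A heat shock element is built from the unit GAA and its reverse TTC. Promoter windows of RefSeq (250 bases before and 50 after a start, GRCm38.p6, which shares its coordinates with mm10) were at hand for 31 of the 38 members. The unit pair GAANNTTC, which reads the same on both strands, occurred in 7.86% of all 32851 windows. Among the 19 cytosolic members with a window it occurred, in at least 1 window, in 6 (Cct2, Dnaja1, Fkbp4, Hspa1a, Hspa1b and Hsph1), and in 0 of the 12 ER members. The 31 members had 38 windows, so a count of genes and a share of windows are unlike measures. Hspa1a and Hspa1b are nearly identical copies. In Hsph1 the pair has a further unit before it (TTCNNGAANNTTC). A pair with a further unit before or after it was in 0.603% of all windows, and every such triple also counts as a pair. Of those 6 genes, 4 were lower and 2 were under the filter, and of the 13 cytosolic members without the pair 12 were lower. A match is a description of letters, and no binding was measured. The 250 bases before the start are printed for an HSP90 cofactor and a J protein that were both lower with TGFβ, with the pair in capitals, for Fkbp4 at chr6:128438657-128438906 on the minus strand and Dnaja1 at chr4:40722218-40722467 on the plus strand.
Fkbp4: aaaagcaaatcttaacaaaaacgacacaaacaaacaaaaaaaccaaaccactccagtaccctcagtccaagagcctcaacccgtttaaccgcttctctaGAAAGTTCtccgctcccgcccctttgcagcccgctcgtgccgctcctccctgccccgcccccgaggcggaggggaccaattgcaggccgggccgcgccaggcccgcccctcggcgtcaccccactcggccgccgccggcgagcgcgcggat
Dnaja1: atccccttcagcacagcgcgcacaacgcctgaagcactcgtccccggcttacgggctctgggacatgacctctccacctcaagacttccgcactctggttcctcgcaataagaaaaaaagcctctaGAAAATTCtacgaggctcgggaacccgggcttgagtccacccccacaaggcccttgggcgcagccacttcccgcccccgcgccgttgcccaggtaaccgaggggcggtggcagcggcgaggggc
The pair begins 151 bases before the start in Fkbp4 and 124 bases before it in Dnaja1.

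The ER members differed among themselves. The 3 large ER chaperones were lower. Hspa5 (BiP), on chromosome 2 from 34771970 to 34777547 of GRCm38, had 351, 372, 385 and 420.2 FPKM in OVA-T4 and 278, 293, 282 and 314 FPKM in OVA-T4 + TGFβ (log2 fold change -0.39 ± 0.06 SE, limma adjusted p = 0.000959). Hsp90b1 (GRP94), on chromosome 10 from 86690209 to 86705509, had 188, 211, 232 and 202 FPKM in OVA-T4 and 147, 170.2, 171 and 153 FPKM in OVA-T4 + TGFβ (log2 fold change -0.38 ± 0.08 SE, limma adjusted p = 0.00284). Hyou1 (GRP170), the nucleotide exchange factor of BiP, had 63.3, 68.7, 67.1 and 73.2 FPKM in OVA-T4 and 49.2, 49.4, 46.8 and 59.4 FPKM in OVA-T4 + TGFβ (log2 fold change -0.41 ± 0.08 SE, limma adjusted p = 0.00218). The groups did not overlap in any of the 3 genes, and replicate 4 was the highest library of both groups for Hspa5 and Hyou1. The FPKM of BiP was 0.131 ± 0.0109 times that of the cytosolic Hspa8 with OVA-T4 and 0.145 ± 0.00872 times with OVA-T4 + TGFβ (SD, n = 4 each), a difference within the overlap of the groups (exact permutation test, two-sided, p = 0.114, and 0.114 after adjustment over 3 ratios).

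Of the 3 BiP cofactors listed, 1 passed the test. Sdf2l1, a component of an ER chaperone complex that keeps clients soluble, had 64.3, 68.4, 62.9 and 67.0 FPKM in OVA-T4 and 44.6, 49.6, 50.4 and 43.8 FPKM in OVA-T4 + TGFβ (log2 fold change -0.48 ± 0.06 SE, limma adjusted p = 0.000191) and was lower. Dnajc3 (p58IPK), an ER J protein that also restrains the kinase PERK, had 21.1, 19.9, 20.7 and 20.8 FPKM in OVA-T4 and 23.1, 22.4, 22.4 and 22.0 FPKM in OVA-T4 + TGFβ (log2 fold change 0.12 ± 0.05 SE, limma adjusted p = 0.0584). Its groups did not overlap, with TGFβ the higher one, as in 29.1% of all genes tested, yet it missed the threshold. With the replicate number as a block its adjusted p was 0.0477, and after median of ratios scaling it was 0.742. Dnajb9 (ERdj4), a J protein and target of XBP1, was low throughout, with 5.85, 3.46, 3.79 and 7.00 FPKM in OVA-T4 and 6.27, 5.67, 5.61 and 7.69 FPKM in OVA-T4 + TGFβ (log2 fold change 0.34 ± 0.21 SE, limma adjusted p = 0.196). Replicates 1 and 4 were the high libraries of Dnajb9 in both groups, and the value with TGFβ was above that of its partner library in 4 of 4 pairs, by 0.09 to 0.64 in log2. With the block its adjusted p was 0.0324. Without OVA-T4 replicate 4 it was 0.0436 at a log2 fold change of 0.51. Without the libraries numbered 1 and 4, a choice made after values were seen that left 2 per group, it was 0.00989 at 0.58. Dnajb9 passed in only these 3 of the 20 alternatives. Its groups overlapped, and its limma adjusted p was 0.303 after median of ratios scaling and 0.562 at the highest. Of 6 other ER cofactors of HSP70, 1 was higher (Dnajc10 at 0.30), 0 were lower and 5 did not pass, and 2 were higher with the block.

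Among the disulfide isomerases only P4hb (PDI) passed the test. It had 299, 304, 294 and 315 FPKM in OVA-T4 and 252, 261, 262 and 256 FPKM in OVA-T4 + TGFβ (log2 fold change -0.23 ± 0.04 SE, limma adjusted p = 0.00108). Pdia3 (ERp57), the partner of the lectin chaperones, had 461, 460.4, 482 and 477 FPKM in OVA-T4 and 457, 501, 502 and 468 FPKM in OVA-T4 + TGFβ (95% interval of the log2 fold change -0.07 to 0.14, limma adjusted p = 0.571). Pdia4 had 74.7, 82.9, 81.7 and 83.0 FPKM in OVA-T4 and 68.6, 74.2, 75.6 and 76.6 FPKM in OVA-T4 + TGFβ (log2 fold change -0.13 ± 0.05 SE, limma adjusted p = 0.078). Pdia6 was at 233 and 216 FPKM as group means (log2 fold change -0.11 ± 0.06 SE, limma adjusted p = 0.195). Each of Pdia4 and Pdia6 was lower in 4 of 4 pairs, although their groups overlapped. With the block they passed, at adjusted p-values of 0.012 and 0.0239, and so they did without OVA-T4 replicate 1, at 0.0344 and 0.0464, and after median of ratios scaling, at 0.0139 and 0.0496. Each passed in only 4 of the 20 alternatives, and the highest limma adjusted p was 0.216 for Pdia4 and 0.994 for Pdia6. Of 14 other ER oxidoreductase genes, 4 were lower, 4 were higher and 6 did not pass. Pdia5 had the largest fall of any folding gene examined, from 1.61, 2.18, 1.81 and 1.32 to 0.525, 0.668, 0.673 and 0.633 FPKM (log2 fold change -0.97 ± 0.15 SE, limma adjusted p = 0.000575). Qsox1, a secreted and Golgi sulfhydryl oxidase, was among the higher ones, from 16.6, 15.4, 16.8 and 16.3 to 29.0, 30.1, 32.2 and 28.8 FPKM (log2 fold change 0.86 ± 0.06 SE, limma adjusted p = 5.2e-06).

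The lectin chaperones calreticulin and calnexin, which hold glycoproteins until they fold, took different values. Calr, on chromosome 8 from 84841850 to 84846934 of GRCm38, was the most abundant ER member and had 567, 576, 588 and 622 FPKM in OVA-T4 and 585, 610, 573 and 663 FPKM in OVA-T4 + TGFβ (95% interval of the log2 fold change -0.08 to 0.17, limma adjusted p = 0.528). Canx had 263, 265, 277 and 273 FPKM in OVA-T4 and 224, 239, 243 and 236 FPKM in OVA-T4 + TGFβ (log2 fold change -0.20 ± 0.04 SE, limma adjusted p = 0.00365), with no overlap, but did not pass after quantile normalization (adjusted p = 0.0972). Of the 4 tested glycoprotein folding genes outside the members, 2 were lower, 1 was higher and 1 did not pass. Both regulators were of low or middle abundance. Atf6 had 9.78, 8.73, 8.71 and 10.5 FPKM in OVA-T4 and 6.56, 6.03, 6.20 and 7.61 FPKM in OVA-T4 + TGFβ (log2 fold change -0.48 ± 0.10 SE, limma adjusted p = 0.00247) and was lower without overlap. Xbp1 had 33.2, 41.9, 52.5 and 47.1 FPKM in OVA-T4 and 41.9, 37.8, 37.8 and 47.3 FPKM in OVA-T4 + TGFβ (95% interval of the log2 fold change -0.37 to 0.23, limma adjusted p = 0.693), and OVA-T4 replicates 1 and 3 marked both ends of its range. FPKM of the whole gene says nothing of the spliced form of Xbp1 that makes the active factor.

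**Figure D3:**
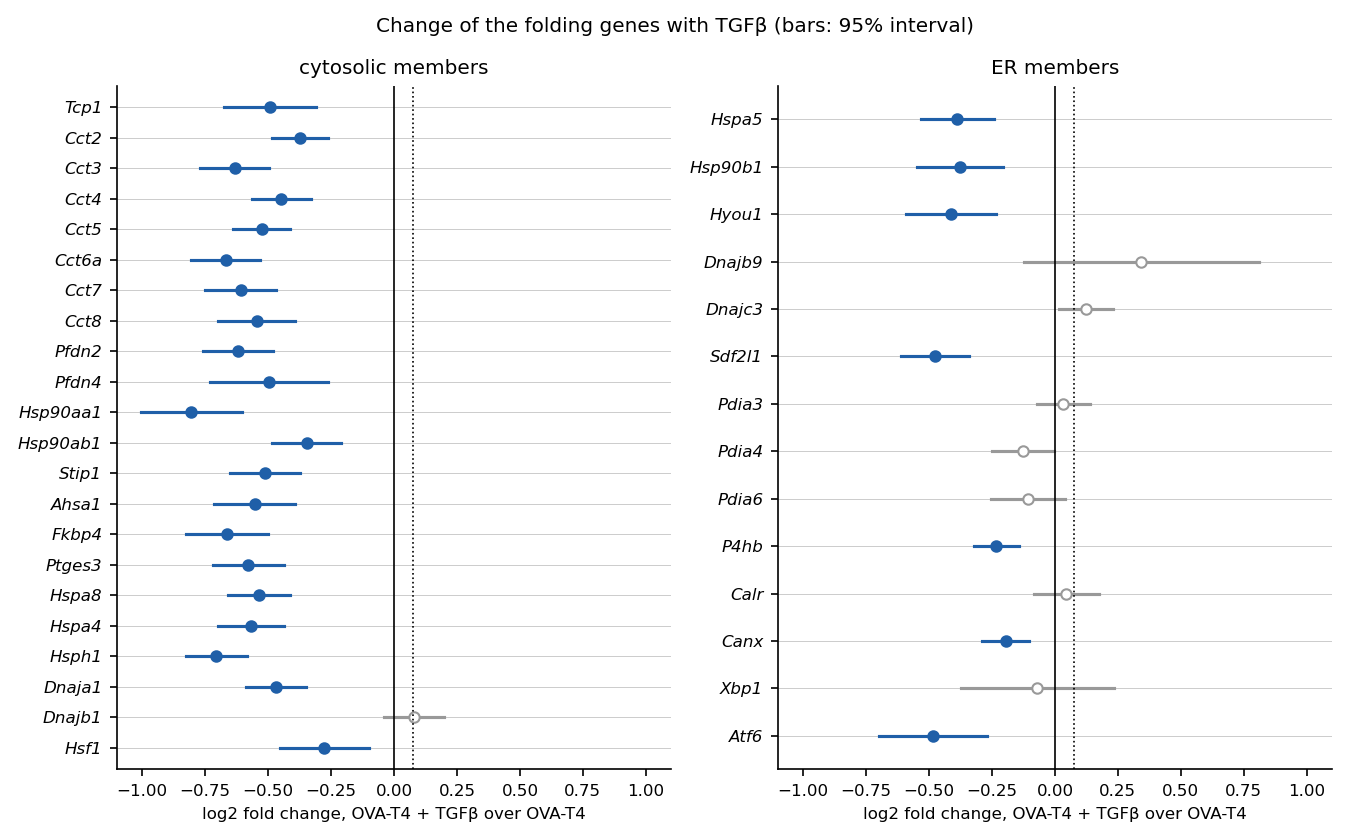
Log2 fold change of OVA-T4 + TGFβ over OVA-T4 for each tested member, with its 95% interval from limma (4 libraries per group). Filled blue points passed the test, open grey ones did not, and the dotted line is the median of all genes tested (0.08). The cytosolic points lie between -0.80 and -0.28 apart from Dnajb1 at 0.08, and the ER points between -0.48 and 0.34.

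The ER stress response element, CCAAT and CCACG with 9 bases between them on either strand, is the binding site of ATF6 with NF-Y. It occurred in 39 of the 32851 windows (0.119%). Among the 12 ER members with a window it occurred in 6 (Calr, Canx, Dnajc3, Hsp90b1, Hspa5 and Pdia6), and in 0 of the 19 cytosolic members. Hspa5, Hsp90b1 and Canx were lower with TGFβ, whereas Calr, Dnajc3 and Pdia6 did not pass. Of the 6 ER members without the element, 2 were lower. The 250 bases before the start are shown for BiP and GRP94, which were lower, and for calreticulin, which was not. Capitals mark the element, which reads CGTGG to ATTGG when it lies on the other strand, and in Calr also the E-box CACGTG, the site of MYC-MAX and related factors, which occurred in 7.15% of all windows. The E-box was also in the windows of Hsph1, which was lower, and Dnajb9, which did not pass. The positions are chr2:34771840-34772089 on the plus strand for Hspa5, chr10:86705445-86705694 on the minus strand for Hsp90b1 and chr8:84846932-84847181 on the minus strand for Calr, in GRCm38.p6.
Hspa5: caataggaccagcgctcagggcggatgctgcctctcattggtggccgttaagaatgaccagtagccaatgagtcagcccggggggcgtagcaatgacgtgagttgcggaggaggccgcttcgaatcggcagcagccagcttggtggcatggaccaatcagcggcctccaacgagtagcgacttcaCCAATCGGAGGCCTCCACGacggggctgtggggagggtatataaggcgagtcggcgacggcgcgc
Hsp90b1: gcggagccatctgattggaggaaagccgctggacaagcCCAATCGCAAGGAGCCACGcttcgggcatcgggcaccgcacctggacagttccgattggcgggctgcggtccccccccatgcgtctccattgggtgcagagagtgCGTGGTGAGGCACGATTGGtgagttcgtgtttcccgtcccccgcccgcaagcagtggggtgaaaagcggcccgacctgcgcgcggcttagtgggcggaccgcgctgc
Calr: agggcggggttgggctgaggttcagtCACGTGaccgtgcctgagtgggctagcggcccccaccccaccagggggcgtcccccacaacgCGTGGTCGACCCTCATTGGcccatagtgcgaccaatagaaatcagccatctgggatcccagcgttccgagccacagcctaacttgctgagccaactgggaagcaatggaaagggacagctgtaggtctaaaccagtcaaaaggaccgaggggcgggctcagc
The element begins 65 bases before the start in Hspa5, 212 and 107 bases before it in Hsp90b1 and 162 bases before it in Calr, so that genes with the same letters in this window differed in their call.

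Other folding genes went both ways. Of 64 other cytosolic folding genes, 61 were tested, of which 22 were lower, 12 were higher and 27 did not pass, with a median log2 fold change of -0.07, beside 20.2% lower, 30.7% higher and a median of 0.08 over all genes tested. All 4 listed cytosolic proline isomerases, of which Ppia (cyclophilin A) was the most abundant, and both ribosome-bound factors (Naca and Btf3) were lower. Hspb6, a small heat shock protein, had the largest rise of the list, from 2.35, 2.39, 2.63 and 2.02 to 3.08, 3.22, 4.90 and 3.13 FPKM (log2 fold change 0.50 ± 0.15 SE, limma adjusted p = 0.0196). Of 59 other ER folding genes, 56 were tested, of which 13 were lower, 14 were higher and 29 did not pass, with a median of 0.06, and these shares lie near those over all genes tested (20.2% and 30.7%). With the replicate block 24 of the other cytosolic genes were lower and 15 higher, and 13 and 17 of the other ER genes. Of all 12879 genes tested, 3266 were lower and 4569 were higher with the block. Creb3l2, a membrane-bound factor related to ATF6, rose most, from 1.40, 0.888, 0.967 and 1.49 to 3.31, 2.79, 2.64 and 3.20 FPKM (log2 fold change 1.06 ± 0.15 SE, limma adjusted p = 0.000375). Of 8 translocon genes, 3 were lower and 0 were higher, and of 10 genes of ER-associated degradation, 3 were lower and 3 were higher. After median of ratios scaling the other cytosolic list had 27 lower and 6 higher, and the other ER list 20 lower and 9 higher. With that scaling 3460 of all genes tested were lower and 3129 were higher.

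**Figure D4:**
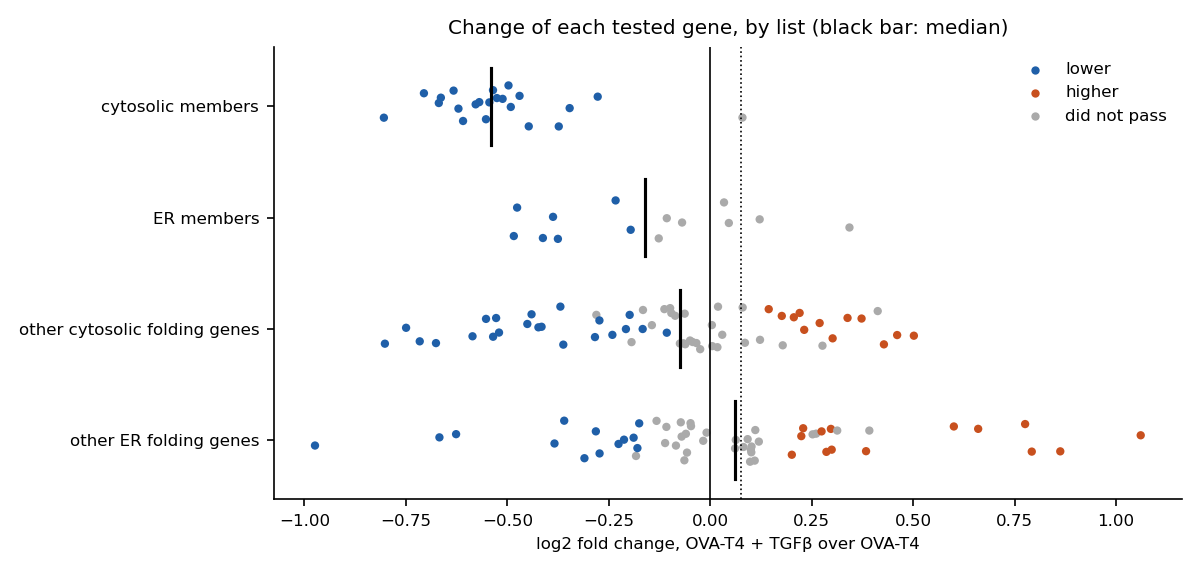
Log2 fold change of OVA-T4 + TGFβ over OVA-T4 for every tested gene of the 4 lists (22 cytosolic members, 14 ER members, 61 other cytosolic and 56 other ER folding genes). Each point is 1 gene, blue lower, orange higher and grey not passed, with the list's median as a black bar and the median of all genes (0.08) dotted. The medians are -0.54, -0.16, -0.07 and 0.06.

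Summed over the list, the cytosolic members had 15556, 17477, 17062 and 16115 FPKM in OVA-T4 and 11306, 12493, 11954 and 11817 FPKM with OVA-T4 + TGFβ. The ER members had 2611, 2728, 2800.2 and 2851 FPKM and 2382, 2543, 2494 and 2577 FPKM. Neither sum overlapped between the groups, and all members together made up 2.48% ± 0.1002 of the summed FPKM of a library with OVA-T4 and 1.90% ± 0.0846 with OVA-T4 + TGFβ (SD, n = 4 each). The ER sum was 0.156 to 0.177 times the cytosolic sum with OVA-T4 and 0.204 to 0.218 times with OVA-T4 + TGFβ, without overlap. With TGFβ, Hsp90ab1 took 42.8% to 45.0% of the cytosolic sum, against 38.8% to 40.7% without it. The fall of the sum was not confined to the members. The other cytosolic folding genes summed to 6957 to 7649 FPKM with OVA-T4 and 5757 to 6232 FPKM with OVA-T4 + TGFβ, also without overlap. The sum of the other ER folding genes, in contrast, was 2699 to 2743 FPKM with OVA-T4 and 2627 to 2697 FPKM with OVA-T4 + TGFβ, with no overlap but with means of 2714 and 2662 FPKM.

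**Figure D5:**
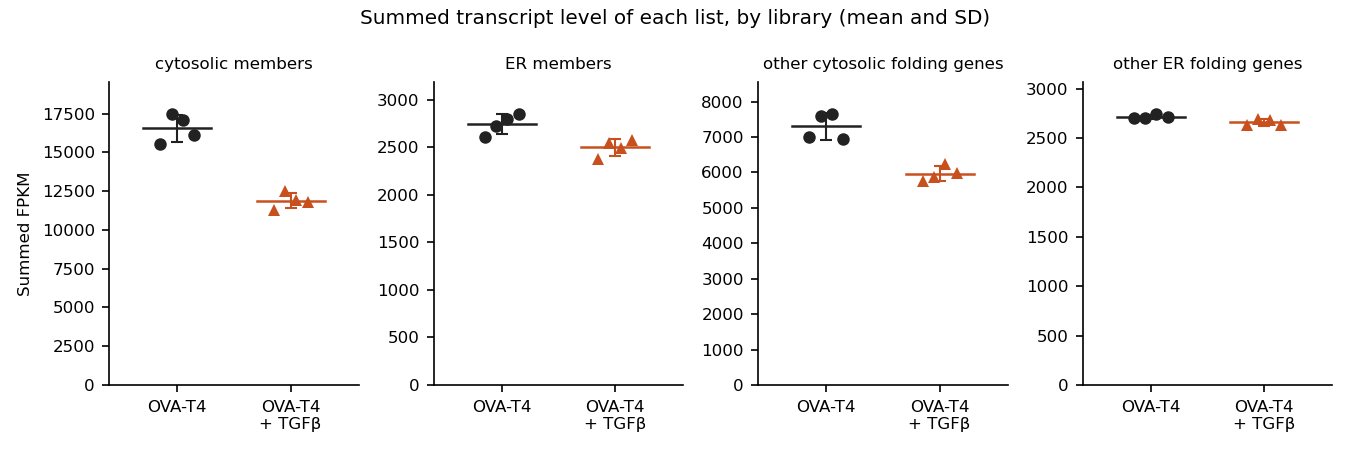
Summed FPKM of each list in each library, on axes from 0. Points are libraries, horizontal lines are means and bars are SD (n = 4). The cytosolic members fall from a mean of 16552 to 11892 FPKM and the ER members from 2747 to 2499 FPKM. The other cytosolic folding genes fall from 7298 to 5965 FPKM, while the other ER folding genes have 2714 and 2662 FPKM.

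Libraries of a group ranked alike over many members. OVA-T4 + TGFβ replicate 2 was the highest of its group in 19 of the 22 tested cytosolic members and replicate 1 the lowest in 14, and OVA-T4 replicate 1 was the lowest of its group in 15. For the ER members replicate 4 was the highest in 7 of 14 in each group. The CD8 T cell markers (6 of 6 tested) summed to 1954 to 2214 FPKM with OVA-T4 and 2478 to 2620 FPKM with OVA-T4 + TGFβ, and 4 were higher and 1 lower. Of the B cell markers Ms4a1 was at 0 in all 8 libraries, while Cd79a and Cd79b were higher with TGFβ, and the markers summed to 3.87 to 5.25 and 10.3 to 12.2 FPKM. The plasma cell markers, whose cells are rich in ER chaperones, summed to at most 2.29 FPKM in any library, and none of the 2 tested passed. The 6 macrophage markers summed to 4.76 to 12.5 FPKM with OVA-T4 and 10.6 to 41.9 FPKM with OVA-T4 + TGFβ, highest in replicates 1 and 4 of each group, with 1 of 2 tested higher (with the replicate block both were, Cd68 going from an adjusted p of 0.149 to 0.00237), and the 6 dendritic cell markers to 5.95 to 15.1 and 17.7 to 28.2 FPKM, with 3 of 3 tested higher. The 3 CD4 T cell markers summed to 4.81 to 7.98 and 5.40 to 8.97 FPKM. Without the libraries numbered 1 and 4, a choice made after these values were seen, 21 cytosolic members were still lower and 0 higher, and 8 ER members were lower and 1 higher.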

How the data were processed

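RNA of 8 libraries was deposited by the authors as 1 table of FPKM per gene. Tools named in the submitters' processing notes are HTSeq, HISAT2 and CASAVA, on the build mm10 (versions not given in the sources used here). Labels gave group and replicate number. FPKM values were turned back into whole reads by solving a length per gene and a total per library (100% of 23842 genes above 0, tolerance 0.005 reads). The solved length is the smallest possible, so reads can be understated. Totals were 38233903, 35839293, 41481888 and 41597929 with OVA-T4 and 40040249, 35586261, 39446072 and 35836413 with OVA-T4 + TGFβ. Each of these gives 0.0240 to 0.0281 FPKM per read in 1 kb.

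The 12879 genes whose mean reached 0.5 FPKM were compared by limma 3.58.1 (R 4.3.3) with a variance trend on log2(FPKM + 0.5), two-sided, with Benjamini-Hochberg adjustment. This scale understates the change of low genes. The procedure was tested on simulated data. Ratios were compared by exact permutation. The members and lists were chosen with earlier results of these data known. From each list of other folding genes, the 3 called genes with the largest change and the largest in the other direction were named, and Pfdn5, Pfdn6, Uxt, Hspa4l, Hspa14, Dnajc10, Ppia, Naca, Btf3, Eif2ak3, Mbtps1, Ern1, Ddit3 and Cd68 were named after their values were seen. Ero1l, Ero1lb and Vimp are older symbols of listed genes. A listed marker gene is not reported here.

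Deviations from the group mean correlated between same-numbered libraries (r over genes 0.179, 0.205, 0.419 and 0.505, and -0.489 to 0.254 for different numbers). OVA-T4 + TGFβ replicate 1 correlated more with OVA-T4 replicate 4 (0.246) than with its own number, and replicate 2 more with OVA-T4 replicate 3 (0.239). The values therefore do not establish the pairing for numbers 1 and 2, and no label states it. It was assumed in the replicate block, the pair counts and the paired exact p of the HSP90 ratio. The main fit and its adjusted p-values did not use the numbers. Alternatives were pseudocounts 0.1 and 1, no filter and a filter of 5 FPKM, median of ratios, quantile and TPM scaling, no trend, library weights, the replicate block, limma voom on the reads, and leaving out libraries. Positions come from GENCODE M21 on GRCm38, and promoter windows from RefSeq. Python 3.11.15 was used with pandas 2.3.3, numpy 2.4.6, SciPy 1.17.1 and matplotlib 3.10.9.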

Additional observations from a re-analysis of the deposited data

Results flagged for a closer look

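Of 76 groups of 4 libraries (38 members, each with and without TGFβ), 2 held a library far from the other 3, where chance alone marks about 1 in 20 such groups. Hspa4 was at 141 FPKM in OVA-T4 + TGFβ replicate 2, above the 125 to 128 FPKM of the other libraries of that group, a gap of 0.835 of the range. Pdia4 was at 74.7 FPKM in OVA-T4 replicate 1, below the 81.7 to 83.0 FPKM of the others, a gap of 0.847 of the range.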

How the results depend on the processing

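In all 20 alternatives 20 of the 22 tested cytosolic members kept their call of lower and 6 of the 7 lower ER members theirs. The exceptions were Hsp90ab1 (no filter, adjusted p = 0.0595), Canx (quantile normalization, 0.0972) and Dnajb1, which did not pass in any. Calr and Xbp1 did not pass in any either, and the causes were not tested. Leaving out single libraries left 21 cytosolic members lower and gave 7 to 9 lower and 0 to 1 higher ER members. Higher ER members numbered 2 with the replicate block, and 1 with no filter, with a filter of 5 FPKM, after quantile normalization, after TPM scaling and without the libraries numbered 1 and 4. Apart from Dnajb9, Dnajc3, Pdia4 and Pdia6 the block changed no member's call. Its value for the HSP90 ratio was -0.46 with exact p = 0.125, and without single libraries that ratio was -0.50 to -0.41 with exact p = 0.0571, the smallest that 3 against 4 allow.

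After median of ratios scaling the median log2 fold change was -0.64 for cytosolic and -0.26 for ER members, and the latter was -0.093 after quantile normalization and -0.23 with limma voom on reads. Dnajb1 reversed to -0.023 after median of ratios scaling, Pdia3 to -0.069 and with voom -0.035, Calr to -0.058 and with voom -0.023, and Xbp1, at -0.19 to 0.025 without single libraries, only without OVA-T4 replicate 3. Of the other cytosolic folding genes, 12 were higher, against 6 after median of ratios scaling, 7 with voom, 7 without the libraries numbered 1 and 4, and 6 to 12 without single libraries (6 without OVA-T4 + TGFβ replicate 1). Of the other ER folding genes, 14 were higher and 13 lower, against 9 and 20 after median of ratios scaling, and 8 to 12 were lower without single libraries (8 without OVA-T4 + TGFβ replicate 1). The median over all genes shifted by -0.094 with median of ratios, by -0.11 with quantile and by 0.037 with TPM scaling, and the share of higher genes among all calls was 60.3%, 47.5%, 46.8% and 65.1% as deposited and in these scalings. Voom called 3441 genes higher and 3189 lower, against 3955 and 2607. The members Hspa1a and Hspa1b, with 0 to 47 reads a library, and 6 of the other folding genes were too low to be tested, and Pdia5 had 38 to 48 recovered reads a library with TGFβ.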

Other observations

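Genes of the ER stress sensors and their processing were measured beside the members, and the following were picked after their values were seen. Eif2ak3 (PERK), the sensor kinase that slows translation under ER stress, had 9.11, 7.61, 6.98 and 8.50 FPKM in OVA-T4 and 16.9, 12.6, 13.9 and 13.9 FPKM in OVA-T4 + TGFβ (log2 fold change 0.79 ± 0.11 SE, limma adjusted p = 0.000338). Mbtps1, the site-1 protease that cleaves ATF6 in the Golgi, had 20.4, 19.0, 21.4 and 19.7 FPKM in OVA-T4 and 36.1, 33.6, 36.3 and 33.1 FPKM in OVA-T4 + TGFβ (log2 fold change 0.78 ± 0.06 SE, limma adjusted p = 1.01e-05). The groups did not overlap in either gene, and both stayed higher after median of ratios scaling (adjusted p-values of 0.000391 and 2.9e-05). With Creb3l2, 3 of the 7 listed sensor and factor genes were higher, each by over 1.5-fold, 0 were lower and 4 did not pass. Over all genes tested, 30.7% were higher and 20.2% were lower. In the same libraries 7 of the 14 ER members were lower, among them Atf6, Hspa5 and Hsp90b1, while 0 were higher and 7 did not pass. With the replicate block 5 of the 7 were higher, where 4569 of the 12879 genes tested were higher, against 3955 without the block. Ern1 (IRE1α), at 0.31 in log2, went from a limma adjusted p of 0.099 to 0.031. Ddit3 (CHOP), at 0.39, went from 0.174 to 0.00704. Both were above their partner library in 4 of 4 pairs, a pairing that no label states, but the groups overlapped in both genes. After median of ratios scaling, without the block, the limma adjusted p was 0.181 for Ern1 and 0.273 for Ddit3.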
